A study of Mus musculus with 3 samples.

Results

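Glutathione S-transferases attach glutathione to reactive compounds, and 9 of their genes (Gsta1, Gsta2, Gsta3, Gsta4, Gstm1, Gstm2, Gstp1, Gstt1 and Mgst1) were followed across the cell types of the mouse kidney cortex before and after ischemia-reperfusion injury (IRI). They were chosen by name and make up 9 of the 22535 genes in the count tables of 3 single-cell RNA-seq libraries. All mice were WT1CreERT2; Rosa26-tdTfl/+, in which tamoxifen switches on the red reporter tdTomato (tdT) in cells that express Wt1 and in their descendants. Podocytes express Wt1, so that most tdT+ cells were podocytes and the parietal epithelial cells (PECs) of Bowman's capsule were caught only in part. The Sham library held tdT+ and tdT- cells mixed 2 to 1 after sham surgery, the IRI24h-TDN library a 2 to 1 mixture from mice at 24 h after a severe bilateral IRI, and the IRI24h-TD library held tdT+ cells alone at 24 h. Each library was made from cells pooled over 4 kidneys, with 1 library per condition. No difference between conditions therefore had a replicate check, and every interval given covers counting error only.

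After barcodes with fewer than 200 genes or more than 50% mitochondrial UMIs (unique molecular identifiers, 1 per captured transcript) were set aside, 8047, 9024 and 9689 cells were kept in Sham, IRI24h-TDN and IRI24h-TD, with median depths of 7746, 9151 and 9529 UMIs. Cell classes were named from marker genes, with the glutathione S-transferase genes left out, and levels are CPM, the UMIs of a gene scaled to 1000000 UMIs of a class, with UMIs summed over its cells in a library. Podocyte-like cells numbered 4217, 5034 and 8214 in these libraries, PEC-like cells 980, 432 and 599, and proximal tubular epithelial (PTEC)-like cells 1082, 165 and 120. The 16 PTEC markers summed to 60489 CPM in PTEC-like cells of Sham, 11759 CPM in IRI24h-TDN and 9384 CPM in IRI24h-TD, and the 5 markers of injured tubule to 13.9, 2437 and 1901 CPM. The PTEC-like cells of IRI24h-TD were shallow, with a median of 1029 UMIs against 6914 in Sham and 9603 in IRI24h-TDN, and shares of cells with a UMI in them were set by this depth as well. Between 82 and 96 kept barcodes were shared by each pair of libraries. IRI24h-TD had under 50 cells in every tubular class past the proximal tubule, and its levels there are not ranked.

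Soluble glutathione S-transferases fall into classes, alpha, mu, pi and theta among them, which differ in the compounds they prefer, while microsomal members are membrane proteins. The conjugates they form are exported, cut down by brush-border peptidases of the proximal tubule and excreted as mercapturic acids. Several of these genes are textbook targets of the transcription factor Nrf2, which binds the antioxidant response element, and alpha-class proteins in urine have long served as markers of proximal tubule damage.

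The 9 genes lie at 6 places in the mouse genome (GRCm38, GENCODE M21). The alpha genes Gsta1 (chr9:78230656-78242684, plus strand), Gsta2 (chr9:78331018-78355788, minus strand) and Gsta4 (chr9:78182774-78209349, plus strand) are neighbours, and Gsta3 (chr1:21240589-21265661, plus strand) lies apart and overlaps the antisense gene Gm28836. The mu genes Gstm1 (chr3:108012255-108017973) and Gstm2 (chr3:107981702-107986453) adjoin on the minus strand. Gstp1 (chr19:4035407-4037985) and Gstt1 (chr10:75783813-75798584) are on the minus strand, and Mgst1 (chr6:138140316-138156755) is on the plus strand. The 250 bases before the transcription start are shown for Gsta1 (chr9:78230419-78230668, plus strand) and Gsta2 (chr9:78347146-78347395, minus strand), because these near-identical neighbours had the largest and the most abundant alpha-class increases in PTEC-like cells of IRI24h-TDN. The promoters are from RefSeq (GRCm38.p6), are written 5′ to 3′ on the gene's strand, and were 70.5% identical.

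Gsta1: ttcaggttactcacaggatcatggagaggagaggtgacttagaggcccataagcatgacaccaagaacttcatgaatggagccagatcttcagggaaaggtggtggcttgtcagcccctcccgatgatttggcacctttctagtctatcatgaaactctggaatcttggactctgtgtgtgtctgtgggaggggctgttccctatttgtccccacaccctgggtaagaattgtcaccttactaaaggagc

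Gsta2: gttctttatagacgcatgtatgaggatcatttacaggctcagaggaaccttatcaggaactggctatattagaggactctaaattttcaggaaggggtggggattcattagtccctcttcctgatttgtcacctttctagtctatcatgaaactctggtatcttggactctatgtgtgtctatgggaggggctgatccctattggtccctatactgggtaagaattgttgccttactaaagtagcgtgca

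Neither holds the core of the antioxidant response element, searched as TGACNNNGC on both strands. It was found in the 250 bases before the start of 3112 of 27025 genes (11.5%). Among the members, 8 had a promoter in the RefSeq table, Gsta4 having none, and the core was found in Gsta3 and Mgst1. Both windows are shown with the core in capitals.

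Gsta3: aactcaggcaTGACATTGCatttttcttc

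Mgst1: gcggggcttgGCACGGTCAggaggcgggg

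The Gsta3 core lies 121 bases before the start on the plus strand, and the Mgst1 core 56 bases before the start on the minus strand, read here on the gene's strand. These letters are a description of the windows and not evidence of binding.

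Gsta1 was nearly absent from Sham and appeared in proximal cells after IRI. It was counted with 2 UMIs over all 8047 Sham cells, 217 over the IRI24h-TDN cells and 32 over the IRI24h-TD cells. In PTEC-like cells the level was 0 CPM in Sham (0 UMIs), 75.1 CPM in IRI24h-TDN (95% interval 63.9-87.7, 159 UMIs) and 19.8 CPM in IRI24h-TD (11.1-32.7, 15 UMIs). Against a limit of 3 UMIs for a count of 0, the IRI24h-TDN level was at least 220.0-fold higher than Sham (log2 at least 7.78). In the cluster of PTEC-like cells with markers of the S3 segment, the straight end of the proximal tubule, 32.6% of IRI24h-TDN cells held a Gsta1 UMI and the level was 98.6 CPM. PEC-like cells reached 7.67 CPM in IRI24h-TDN (43 UMIs) and 1.86 CPM in IRI24h-TD (13 UMIs), against 0 in Sham. Every PEC-like Gsta1 UMI of IRI24h-TDN lay in the cluster of PEC-like cells that also carried PTEC markers, where the level was 13.8 CPM. In this cluster 8 PEC, 9 PTEC, 9 podocyte and 3 injured tubule markers were each found in at least 25% of cells. Its 10 most enriched genes held 0 PEC markers and included Sox9 and Havcr1. Whether its cells were parietal or injured proximal cells was not tested.

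Gsta2, like Gsta1 an alpha-class enzyme that reduces lipid hydroperoxides, was measured in Sham and was far higher in IRI24h-TDN. PTEC-like cells held 65.5 CPM in Sham (60.3-71.1), 666 CPM in IRI24h-TDN (631-701) and 324 CPM in IRI24h-TD (285-367). The 3 intervals did not overlap, and IRI24h-TDN was 10.2-fold above Sham (log2 3.34, 3.20-3.49). A Gsta2 UMI was found in 23.6%, 61.8% and 23.3% of these cells, and in 11.7% of 935, 48.7% of 152 and 25% of 40 cells once each cell was thinned to 2400 UMIs, which left out 147, 13 and 80 shallower cells. Podocyte-like cells, which should lack the gene, had a Gsta2 UMI in 0.427%, 0.278% and 0.243% of cells at median depths of 8320, 9405 and 9781.5 UMIs. In the S3 cluster the level went from 33.6 CPM in Sham to 752 CPM in IRI24h-TDN, a 22.4-fold difference (log2 4.48, 4.27-4.70). In the cluster with markers of the earlier S1 and S2 segments it went from 212 to 485 CPM (log2 1.20, 0.95-1.44), so that the order of the segments turned over between the libraries. The IRI24h-TD levels were 434 CPM in S3 and 195 CPM in S1 and S2, where 1 cell gave 94% of the UMIs. 

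Gsta2 was also higher in the PEC-like class, at 11.8 CPM in Sham, 98.3 CPM in IRI24h-TDN and 9.60 CPM in IRI24h-TD. Of the 551 IRI24h-TDN UMIs behind this level, 547 lay in the cluster with PTEC markers, whose level was 24.4, 176 and 23.3 CPM in the 3 libraries. This cluster held 380, 180 and 196 cells, and its summed PTEC markers stood at 9736, 3211 and 2668 CPM. IRI24h-TD had a 10.2-fold lower level than IRI24h-TDN in the PEC-like class (log2 -3.36, -3.74 to -2.99). Connecting tubule-like cells held 14.3 CPM in Sham and 27.3 CPM in IRI24h-TDN. The Sham order was PTEC-like first, then connecting tubule-like and PEC-like cells with overlapping intervals.

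Gsta3, an alpha-class enzyme abundant in mouse liver, was spread over more of the nephron. Its Sham levels in connecting tubule-like (57.0 CPM), PTEC-like (47.3 CPM), intercalated-like (34.6 CPM) and PEC-like cells (32.6 CPM) overlapped from each to the next. In IRI24h-TDN it was 113 CPM in PTEC-like cells (log2 1.25, 1.02-1.49) and 92.9 CPM in intercalated-like cells, the acid-base cells of the collecting system (log2 1.43, 1.06-1.81). Both intercalated clusters moved the same way, from 44.3 to 102 CPM in type A and from 16.5 to 88.2 CPM in type B. The 2 proximal segments did not, since S3 went from 39.3 to 134 CPM (log2 1.77) and S1 and S2 from 93.3 to 63.4 CPM (log2 -0.56). Ascending limb-like cells went from 8.72 to 23.3 CPM and distal convoluted tubule-like cells from 1.35 to 6.39 CPM, the latter with an interval on both sides of 0 (log2 2.24, -0.31 to 7.57). Connecting tubule-like cells went the other way, from 57.0 to 33.7 CPM, which was under 2-fold. Gsta3 in IRI24h-TD was 56.8 CPM in PTEC-like and 18.3 CPM in PEC-like cells.

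Gsta4, the alpha-class enzyme that conjugates the lipid aldehyde hydroxynonenal, was the one alpha member with more than 2 CPM in podocyte-like cells. Podocyte-like cells held 99.8 CPM in Sham (96.6-103), 101 CPM in IRI24h-TDN (98.2-104) and 88.7 CPM in IRI24h-TD (86.7-90.8), with a UMI in 46.1%, 52.5% and 51.8% of cells. The ratio of IRI24h-TDN to Sham was 0.02 on the log2 scale (-0.04 to 0.08). In Sham the level was 138 CPM in connecting tubule-like, 118 CPM in distal convoluted tubule-like and 99.6 CPM in ascending limb-like cells, which overlapped from each to the next with the podocyte-like level between the last 2. PTEC-like cells stood near the bottom of the Sham order at 11.8 CPM (9.67-14.3), and at the top of the IRI24h-TDN order at 170 CPM (153-189), a 14.4-fold difference (log2 3.85, 3.53-4.18). IRI24h-TD lay between them at 59.5 CPM (43.4-79.6). The increase was present in S3 (4.04 to 170 CPM, log2 5.39) and in S1 and S2 (15.1 to 190 CPM, log2 3.65). The PTEC-like class also held an S3 cluster with podocyte markers, of 63, 7 and 14 cells. In every cluster 4 to 10 podocyte markers were each found in at least 25% of cells, 7 in S3 and 6 in S1 and S2. The part of podocyte RNA in the levels of other classes was not tested.

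In 2 classes Gsta4 was past 2-fold lower in IRI24h-TDN. Ascending limb-like cells went from 99.6 to 38.0 CPM (log2 -1.39, -1.78 to -0.99) and endothelial-like cells from 52.5 to 19.8 CPM (log2 -1.41, -2.58 to -0.37). Distal convoluted tubule-like cells (118 to 59.5 CPM, log2 -0.98), connecting tubule-like cells (138 to 118 CPM, log2 -0.22, -0.45 to 0.01) and intercalated-like cells (50.9 to 56.6 CPM, log2 0.15) did not pass 2-fold. In PEC-like cells Gsta4 was 50.6, 107 and 53.0 CPM in Sham, IRI24h-TDN and IRI24h-TD. The plain PEC cluster, whose second-best marker list was neither that of PTECs nor that of podocytes, went from 86.4 to 242 CPM. There 26% of the IRI24h-TDN UMIs came from 1 of 83 cells. It was not free of such markers, since 8 podocyte and 2 PTEC markers were each found in at least 25% of its cells. The PEC-like cluster with podocyte markers held 59.2, 62.3 and 60.8 CPM. The make-up of that plain PEC cluster differed between libraries: with at least 500 genes and at most 25% mitochondrial UMIs per cell, 31.7% of its IRI24h-TDN cells and 4.72% of its Sham cells were classed with connecting tubule-like cells, and without correction between libraries 32.5% and 4.70%. The part of this in the values of the plain cluster was not tested.

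**Figure D1:**
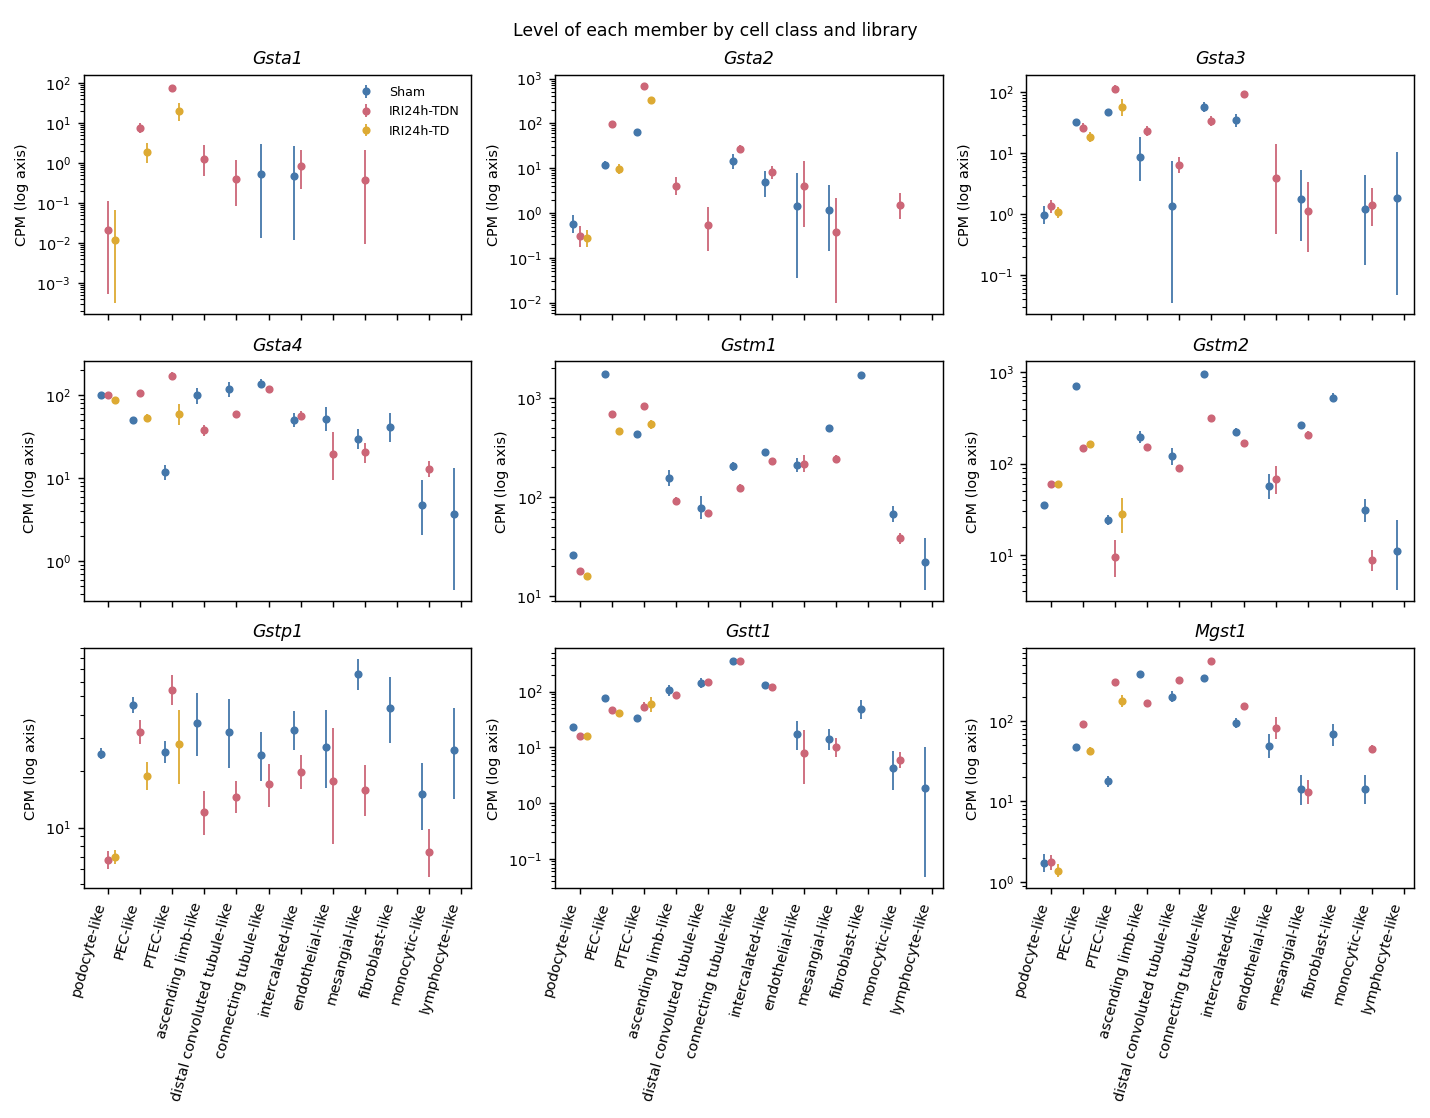
Level of each of the 9 genes (CPM, log axis) in classes of at least 50 cells per library, with points for Sham, IRI24h-TDN and IRI24h-TD and bars for exact 95% Poisson intervals, which cover counting error only; classes with 0 UMIs are not drawn. The IRI24h-TDN points of Gsta2, Gsta4 and Mgst1 in PTEC-like cells (666, 170 and 309 CPM) lie above their Sham points (65.5, 11.8 and 17.9 CPM), while Gstm1 and Gstm2 in PEC-like cells lie below.

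Gstm1 and Gstm2, the mu-class members, were high in PEC-like cells of Sham and lower there after IRI. Gstm1 was 1737 CPM in PEC-like cells of Sham (1710-1765), 694 CPM in IRI24h-TDN (672-716) and 463 CPM in IRI24h-TD (447-479), and no 2 of these intervals overlapped. IRI24h-TDN was 2.50-fold below Sham (log2 -1.32, -1.38 to -1.27). All 3 PEC-like clusters were lower: 3685 to 2033 CPM in the plain PEC cluster, 1438 to 312 CPM in the cluster with podocyte markers and 917 to 454 CPM in the cluster with PTEC markers. One cell of the plain PEC cluster gave 23% of its IRI24h-TDN UMIs. Fibroblast-like cells of Sham held 1700 CPM, overlapping the PEC-like level, and mesangial-like cells went from 499.7 to 244 CPM (log2 -1.03, -1.18 to -0.88). The cluster with podocyte markers carried summed podocyte markers of 17526, 24457 and 30241 CPM in the 3 libraries. With at least 500 genes and at most 25% mitochondrial UMIs per cell, 66.3% of its IRI24h-TDN cells and 33.0% of its Sham cells were classed podocyte-like. At a clustering resolution of 0.6, 100% of both stayed PEC-like. The make-up of the plain cluster differed between libraries as given for Gsta4. The part of these in the Gstm1 differences was not tested.

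In PTEC-like cells Gstm1 moved the opposite way, from 430 CPM in Sham (416-444) to 834 CPM in IRI24h-TDN (796-874) and 539 CPM in IRI24h-TD (488-594). The ratio of IRI24h-TDN to Sham was 1.94-fold (log2 0.96, 0.87-1.04), just under the 2-fold rule. S3 went from 522 to 1016 CPM and S1 and S2 from 193 to 360 CPM. When PTEC-like cells were joined with the PEC-like cluster with PTEC markers, Gstm1 was 586 CPM in Sham and 608 CPM in IRI24h-TDN (log2 0.05, -0.01 to 0.11), so that the difference seen in PTEC-like cells was not seen in the joined cells. Podocyte-like cells held 26.3, 18.0 and 15.8 CPM. In Sham, the share of PTEC markers found in podocyte-like cells (0.593% of their PTEC-like level) would amount to 2.55 CPM of Gstm1.

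Among the cell classes, Gstm2 was highest in connecting tubule-like cells. Their level was 956 CPM in Sham (912-1001), 315 CPM in IRI24h-TDN (297-335) and 282 CPM in the 28 such cells of IRI24h-TD. This was a 3.03-fold lower level in IRI24h-TDN (log2 -1.60, -1.71 to -1.49). PEC-like cells came next and went from 703 CPM (686-720) to 148 CPM (138-159) and 165 CPM (156-175), a 4.74-fold lower level in IRI24h-TDN (log2 -2.25, -2.35 to -2.14). The 3 PEC-like clusters were lower by 3.76-fold (plain), 4.94-fold (with PTEC markers) and 3.96-fold (with podocyte markers). The make-up of the plain cluster and of the one with podocyte markers differed between libraries, as given for Gsta4 and Gstm1. Podocyte-like cells differed from these: 35.0 CPM in Sham (33.1-37.0), 59.6 CPM in IRI24h-TDN (57.5-61.8) and 59.3 CPM in IRI24h-TD (57.7-61.0), a 1.70-fold higher level in IRI24h-TDN (log2 0.77, 0.67-0.86). In PTEC-like cells Gstm2 rested on 212, 20 and 21 UMIs, of which 1 cell gave 19%, 25% and 38%, and its log2 ratio of -1.35 (-2.09 to -0.69) is correspondingly loose.

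**Figure D2:**
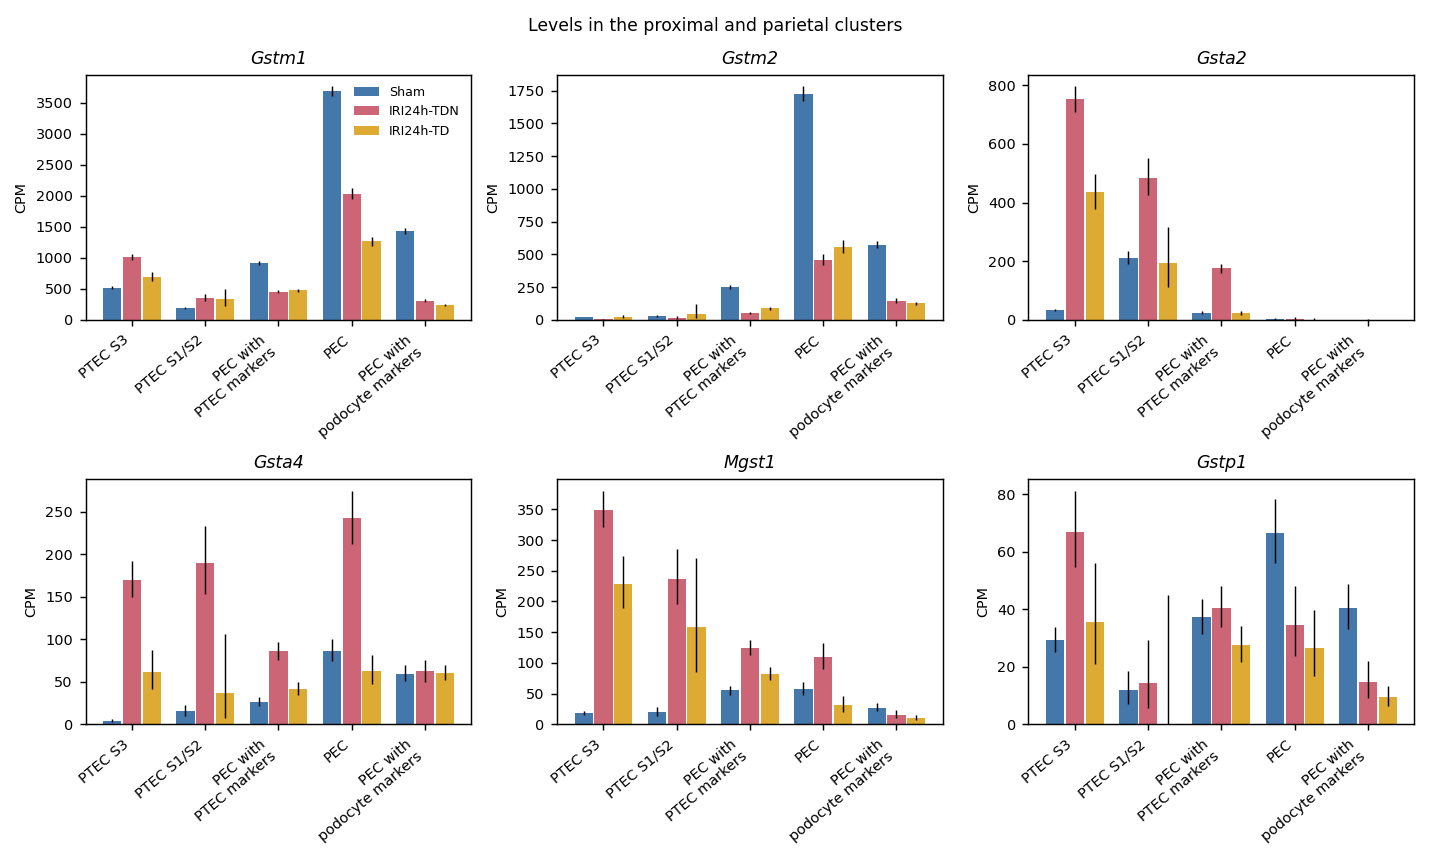
Level (CPM, bars starting at 0, with exact 95% Poisson intervals) of Gstm1, Gstm2, Gsta2, Gsta4, Mgst1 and Gstp1 in 5 clusters from PTEC S3 to the PEC cluster with podocyte markers, in the 3 libraries. Gsta2 and Mgst1 peak in the proximal clusters of IRI24h-TDN, at 752 and 350 CPM in S3, and Gstm2 peaks in the plain PEC cluster of Sham at 1727 CPM.

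Gstp1, the pi-class enzyme, was lower in most classes after IRI and higher in PTEC-like cells. Podocyte-like cells held 24.8 CPM in Sham (23.2-26.4), 6.76 CPM in IRI24h-TDN (6.05-7.53) and 6.98 CPM in IRI24h-TD (6.43-7.58). IRI24h-TDN was 3.66-fold below Sham (log2 -1.87, -2.06 to -1.69) and IRI24h-TD 3.55-fold below, so both injured libraries stood apart from Sham by nearly the same amount. Mesangial-like cells, with the highest Sham level, went from 65.5 to 15.9 CPM (log2 -2.04, -2.59 to -1.52). Of 10 classes with enough UMIs, 9 were lower in IRI24h-TDN and 5 of these past 2-fold. By class, 5.79% (mesangial-like) to 14.0% (PTEC-like) of all genes tested were 2-fold lower in IRI24h-TDN. How many genes were lower in as many classes as Gstp1 was not counted. Of the 10326 genes tested in at least 6 classes, 88 were 2-fold lower in every class tested. Gstp1, being higher in PTEC-like cells, could not be among them, so that number is no background for its count. PTEC-like cells went from 25.4 CPM (22.2-28.9) to 54.3 CPM (44.8-65.2), with 27.8 CPM in IRI24h-TD. In that class 1 cell gave 17% of the IRI24h-TDN UMIs.

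Gstt1, the theta-class enzyme that acts on small halogenated compounds, passed 2-fold between IRI24h-TDN and Sham in none of the 9 classes tested. Connecting tubule-like cells held 353 CPM in Sham (326-380), 347 CPM in IRI24h-TDN (328-367) and 437 CPM in the 28 cells of IRI24h-TD (362-524), and 84.2%, 86.3% and 71.4% of these cells had a UMI. Distal convoluted tubule-like cells (142 and 150 CPM), intercalated-like cells (132 and 122 CPM) and ascending limb-like cells (105 and 85.9 CPM) followed, with overlapping Sham intervals from each to the next. Within the classes, S3 went from 23.2 to 58.5 CPM (log2 1.34) while S1 and S2 went from 74.4 to 49.1 CPM, and the plain PEC cluster went from 81.3 to 17.2 CPM, 4.72-fold lower (log2 -2.24), a cluster whose make-up differed between libraries as given for Gsta4.

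Mgst1, a membrane-bound enzyme of the endoplasmic reticulum and the outer mitochondrial membrane with both transferase and peroxidase activity, was, with Gsta4, the member detected in Sham that differed most over the pooled PTEC-like cells, the intervals of both ratios overlapping. The level was 17.9 CPM in Sham (15.2-20.9), 309 CPM in IRI24h-TDN (286-333) and 177 CPM in IRI24h-TD (148-210). IRI24h-TDN was 17.3-fold above Sham (log2 4.11, 3.86-4.37), and 8.96%, 51.5% and 25% of PTEC-like cells held a UMI, against 1.09%, 1.45% and 1.23% of podocyte-like cells. The difference was present in S3 (18.5 to 350 CPM, 18.9-fold) and, by less, in S1 and S2 (20.2 to 237 CPM, log2 3.56). PEC-like cells went from 47.3 to 92.6 CPM and stood at 42.4 CPM in IRI24h-TD. Connecting tubule-like cells kept the highest IRI24h-TDN level, 561 CPM against 346 CPM in Sham, and intercalated-like cells went from 94.2 to 156 CPM. Ascending limb-like cells, which shared the top of the Sham order with connecting tubule-like cells, went from 380 to 170 CPM (log2 -1.16, -1.35 to -0.96).

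Across the PTEC-like class, 6 of the 9 members were at least 2-fold higher in IRI24h-TDN than in Sham (Gsta1, Gsta2, Gsta3, Gsta4, Gstp1 and Mgst1) and 1 was lower (Gstm2). Of all genes tested in this class 13.7% were 2-fold higher and 14.0% lower, and the members' median log2 ratio was 1.25 against 0.10 over all genes tested. The number of PTEC-like cells in IRI24h-TDN depended on the correction between libraries before clustering, since without it 69.1% of these cells were classed with PEC-like cells, 6.06% stayed PTEC-like and 2 members were higher. Joining PTEC-like cells with the PEC-like cluster with PTEC markers (1462 cells of Sham and 345 of IRI24h-TDN) left 4 members higher and 1 lower, against a background of 12.7% and 14.0%. In this union Gsta1 was at least 166-fold higher, Gsta4 7.29-fold, Gsta2 7.15-fold and Mgst1 6.69-fold, and Gstm2 fell by 1.51 on the log2 scale.

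Within the S3 cluster of IRI24h-TDN, the members were compared between the 81 cells with a UMI of Havcr1, the injury marker KIM-1, and the 11 cells without one. Gsta2 was 761 CPM with and 626 CPM without a Havcr1 UMI, and Mgst1 359 and 215 CPM. Sham S3 cells without a Havcr1 UMI (680 cells) held 34.1 CPM of Gsta2 and 18.7 CPM of Mgst1, and the 31 Sham cells with one held 24.0 CPM of Gsta2. A missing UMI in a sparse count does not show that a cell lacked Havcr1.

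In PEC-like cells 3 members were 2-fold higher in IRI24h-TDN than in Sham (Gsta1, Gsta2 and Gsta4) and 2 were lower (Gstm1 and Gstm2), against 6.94% higher and 12.0% lower over all genes tested in this class, with a members' median of -0.32 against -0.05. Without the cluster with PTEC markers 1 member was higher (Gsta3, log2 1.43) and 4 were lower (Gstm1, Gstm2, Gstp1 and Gstt1), with Gsta4 at 0.90, and under 4 other settings of filtering or clustering no member was higher. In podocyte-like cells 1 of 8 members tested was lower (Gstp1) and 0 were higher, against a background of 9.30% lower and 5.52% higher (median -0.26 against -0.06). In intercalated-like cells 1 of 8 was higher (Gsta3) and 0 were lower, against 9.08% higher and 6.44% lower (median 0.02 against -0.02).

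Between the 2 injured libraries, 4 of the 9 members were 2-fold lower in the PEC-like cells of IRI24h-TD than of IRI24h-TDN (Gsta1, Gsta2, Gsta4 and Mgst1) and 0 were higher. Over all genes tested in that comparison 4.20% were lower and 2.03% higher. The count of 4 fell to 1 or 2 under 4 other settings of filtering or clustering, and over all settings it was 1 to 5. Gsta2 had the greatest difference (98.3 and 9.60 CPM), followed by Gsta1 (7.67 and 1.86 CPM), Mgst1 (92.6 and 42.4 CPM, log2 -1.13) and Gsta4 (107 and 53.0 CPM, log2 -1.01). The summed podocyte markers of PEC-like cells were 7562 CPM in IRI24h-TDN and 15712 CPM in IRI24h-TD, and their part in these differences was not tested. In podocyte-like cells 0 of 8 members were higher or lower, against 0.690% and 2.96% of all genes tested, and the members' median log2 ratio was -0.17. Gsta4 (101 and 88.7 CPM), Gstm2 (59.6 and 59.3 CPM) and Gstt1 (15.8 and 15.8 CPM) show how close the podocyte-like levels of these libraries were.

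**Figure D3:**
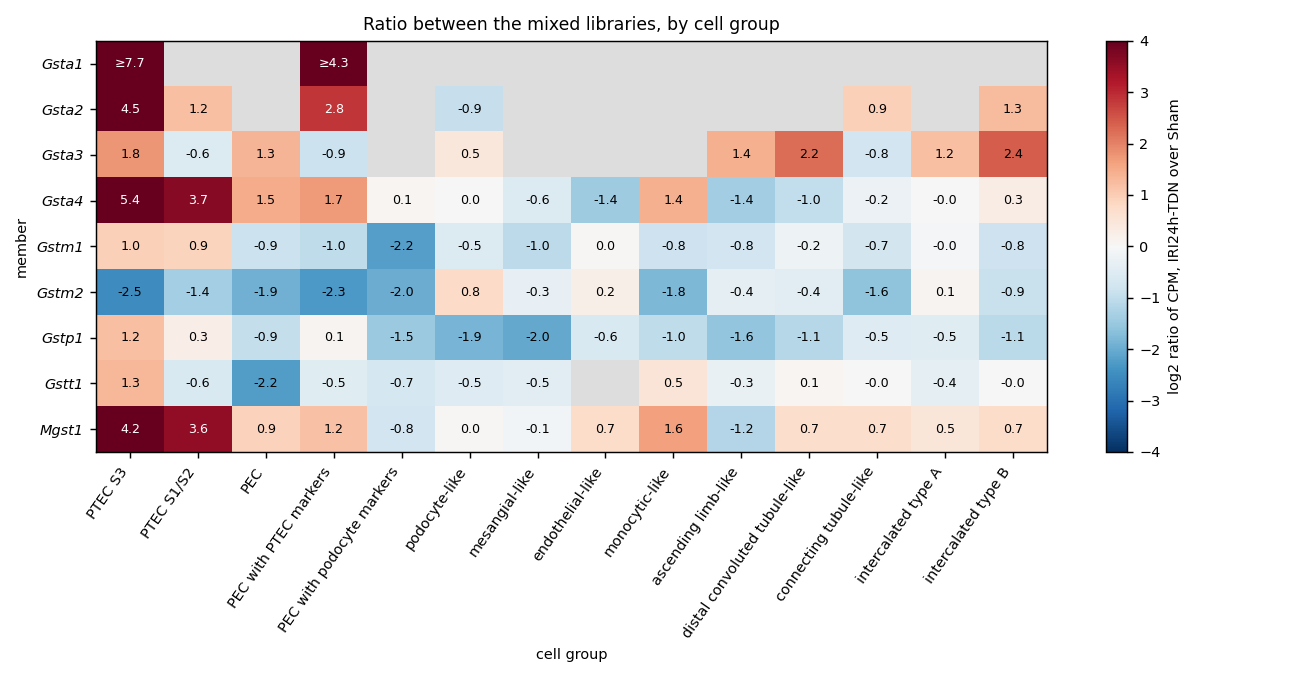
Heat map of the log2 ratio of IRI24h-TDN to Sham for the 9 genes (rows) in 14 groups of cells (columns), red where IRI24h-TDN was higher and blue where it was lower, with grey for groups under 20 UMIs over the 2 libraries, a colour scale that stops at 4 and ≥ on lower bounds. PTEC S3 is red for Gsta1, Gsta2, Gsta4 and Mgst1 (log2 at least 7.72 for Gsta1 and 4.48, 5.39 and 4.24 for the others), and the Gstp1 row is blue in mesangial-like and podocyte-like cells (-2.04 and -1.87).

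Near-identical relatives can take each other's reads, and the sums over relatives were therefore set beside single genes. Of the 451 windows of 50 bases in the last 500 bases of each transcript, the end that is sequenced, 90.0% of the Gsta1 windows also occur in another gene (mainly Gm3776), 51.0% of the Gsta2 windows and 75.2% of the Gstp1 windows (all of them in Gstp2). Gstm1 and Gstm2 share 0.887% and 3.10%, and the other 4 members share none. The relatives Gm3776 (2, 113 and 9 UMIs in Sham, IRI24h-TDN and IRI24h-TD) and Gm10639 (55, 283 and 50 UMIs) moved with Gsta1 and Gsta2. The sum of Gsta1, Gsta2, Gm3776 and Gm10639 in PTEC-like cells was 593, 1794 and 294 UMIs, with a log2 ratio of IRI24h-TDN to Sham of 3.65 (3.52-3.79), against 3.34 for Gsta2 alone.

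Gstp2 had 36 UMIs in Sham, 1 in IRI24h-TD and no row in the table of IRI24h-TDN. The sum of Gstp1, Gstp2 and Gstp3 in podocyte-like cells had a log2 ratio of -1.89 (-2.07 to -1.70), close to that of Gstp1 alone, and the ratios of the sum were 1.21 in PTEC-like and -2.07 in mesangial-like cells. The sum of the Gstm genes was 2647, 993 and 730.2 CPM in PEC-like cells (log2 -1.41) and 552, 1229 and 935 CPM in PTEC-like cells (log2 1.15). Of 9 calls, 8 were the same for the sum of relatives, the exception being Gstm2 in PTEC-like cells. Each sum holds the gene itself, so that a like call is in part built in. In PTEC-like cells of IRI24h-TDN, Gstm1 gave 834 CPM and Gstm2 9.44 CPM of the 1229 CPM of the Gstm sum. That sum is therefore no check on the Gstm2 call. How reads that fit several genes were counted in each library is not given in the sources used here.

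**Figure D4:**
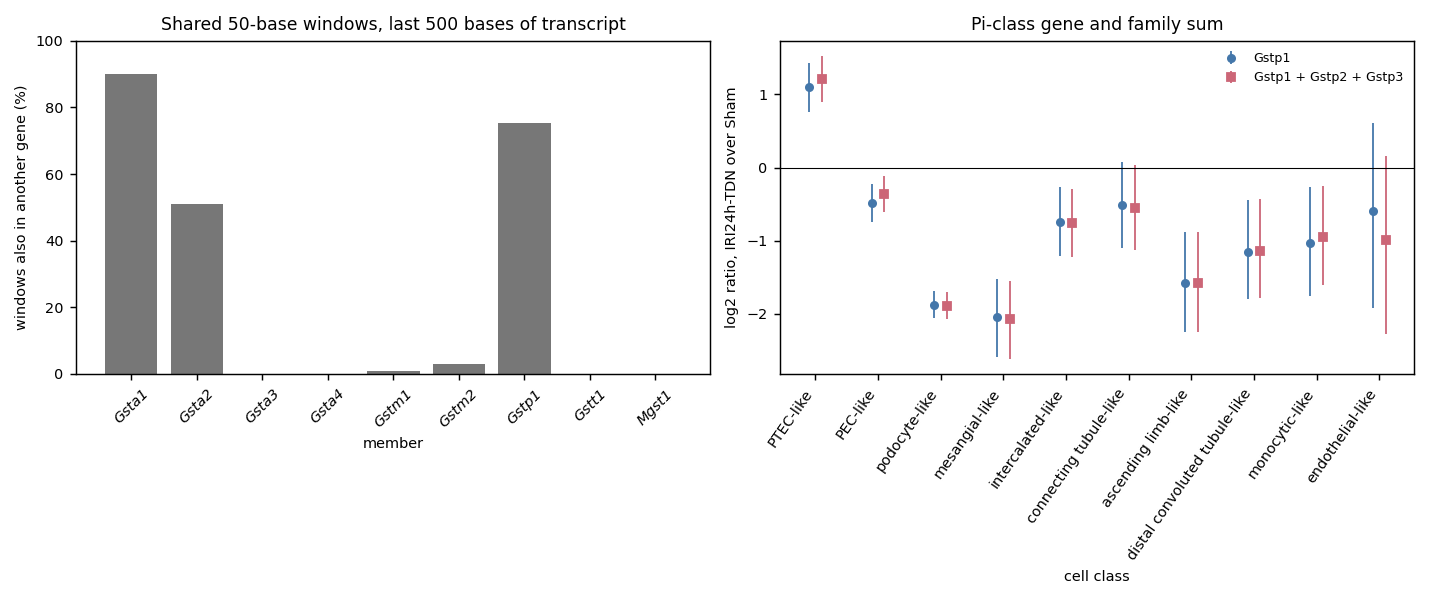
Left, percent of 50-base windows in the last 500 bases of each member's transcript that also occur in another gene. Right, log2 ratio of IRI24h-TDN to Sham by class for Gstp1 and for the sum of Gstp1, Gstp2 and Gstp3. Gsta1 (90.0%), Gstp1 (75.2%) and Gsta2 (51.0%) stand above the other members, and the sum follows Gstp1 in podocyte-like cells (-1.89 and -1.87).

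The wider family held 22 further listed genes, 20 of them in the tables. In PTEC-like cells 6 of 12 tested were higher in IRI24h-TDN and 1 was lower, against 13.7% and 14.0% of all genes tested. Mgst3 went from 78.8 to 249 CPM and Gstm5 from 87.8 to 361 CPM, and Gstz1, an enzyme of tyrosine breakdown, from 265 to 133 CPM. Gstt2, at 299.5 and 179 CPM, did not pass 2-fold. In intercalated-like cells 5 of 12 were higher and 1 lower (9.08% and 6.44% of all genes). Among them Gsto1, the omega-class enzyme, went from 76.4 to 381 CPM, and Ptges, which makes prostaglandin E, from 83.6 to 232 CPM. PEC-like cells had 4 higher and 3 lower of 13 (6.94% and 12.0% of all genes), and podocyte-like cells 0 higher and 1 lower of 15 (5.52% and 9.30%). Between IRI24h-TD and IRI24h-TDN, 0 were higher and 4 lower of 14 in PEC-like cells (2.03% and 4.20%) and 0 higher and 1 lower of 15 in podocyte-like cells (0.690% and 2.96%).

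A list of genes of glutathione synthesis, recycling and breakdown was set beside the transferases. In PEC-like cells 5 of 11 were 2-fold higher in IRI24h-TDN than in Sham and 0 lower, against 6.94% and 12.0% of all genes tested. Their median log2 ratio was 0.91, against -0.05 over all genes tested. By cluster, 5 of 10 were higher in the one with PTEC markers (7.81% of all genes) and 4 of 9 in the plain one (8.62%). The cluster with podocyte markers had 0 of 8 higher (3.04%). In PEC-like cells of IRI24h-TD against Sham, 0 of 9 were higher (5.10% of all genes), with a median log2 ratio of 0.20. The largest ratios of IRI24h-TDN to Sham over the PEC-like class were those of Chac1, which degrades glutathione (log2 3.64, 2.29-5.34), and Slc7a11, the cystine importer (3.26, 1.72-5.25). These rest on few UMIs, 39 against 5 in Sham for Chac1 and 24 against 4 for Slc7a11. Gsr, which regenerates reduced glutathione (1.57), and Gclm, a subunit of the rate-limiting synthetic enzyme (1.19), followed. In PTEC-like cells 1 of 9 was higher (Glrx, log2 1.57) and 1 lower (Ggct, log2 -3.40), shares near those of all genes (13.7% and 14.0%). In podocyte-like cells 1 of 10 was higher (Slc7a11, log2 2.32, 27 UMIs against 4 in Sham) and 0 lower, against 5.52% and 9.30%. In intercalated-like cells 1 of 10 was higher (Chac1, at least 2.32, 34 UMIs against 0) and 0 lower, near the 9.08% and 6.44% of all genes. Between IRI24h-TD and IRI24h-TDN, 1 of 11 was lower in PEC-like cells (Chac1, log2 -3.02, 6 UMIs against 39), against 4.20% of all genes. In podocyte-like cells 0 of 11 passed 2-fold (0.690% higher and 2.96% lower).

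Of the genes that process and export conjugates, 5 of 10 tested in PTEC-like cells were 2-fold lower, 1 was higher and 4 were neither, against 14.0% lower and 13.7% higher over all genes tested, with a median log2 ratio of -0.90. Acy3, the aminoacylase that acts on mercapturic acids, went from 3588 to 362 CPM (log2 -3.31). Ggt5 had a log2 ratio of -2.83, resting on 4 UMIs in IRI24h-TDN and 118 in Sham, and Anpep, a brush-border peptidase, of -2.57. The export pump Abcc4 was higher (log2 2.65). In PEC-like cells 3 of 11 were higher and 2 lower (6.94% and 12.0% of all genes), with Dpep1 (2.24) and Abcc3 (2.18) higher and Anpep (-2.40) lower by the most. In intercalated-like cells 2 of 7 were higher (Abcc3, 2.27, and Abcc4, 1.11) and 2 lower (Acy3, -1.41, and Anpep, -1.20), against 9.08% and 6.44%. In podocyte-like cells 6 of 11 were lower and 1 higher, against 9.30% and 5.52%. Nat8 (log2 -5.68), Acy3 (-3.18) and Ggt1 (-3.16) led them, and these are proximal tubule genes: the PTEC markers in podocyte-like cells went from 359 CPM in Sham to 16.9 CPM in IRI24h-TDN, and their part in these decreases was not tested. Between IRI24h-TD and IRI24h-TDN, 4 of 11 were lower in PEC-like cells (4.20% of all genes), led by Dpep1 (-4.34, 4 UMIs against 65). In podocyte-like cells 1 of 8 was lower (2.96%), Abcc2, on 12 UMIs against 19 (-1.43, -2.61 to -0.31).

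The genes whose levels were most like each member's were sought over the 25 groups of class and library with at least 50 cells, by Pearson's r of log2(CPM + 10) among 8185 genes. The groups share libraries and depth, and the values are a description. Gsta2 was closest to D630023F18Rik and Timd2 (r = 0.96 for both) and Gsta1 to Cyp24a1, which inactivates vitamin D (0.92), and Cyp4a12b (0.92). Gstt1 was closest to Rgl3 and Ripk4 (0.93 for both), Mgst1 to Ampd3 (0.92), and Gsta3 to Habp2 (0.92). Gstm1 was closest to Ptprk (0.87) and Col4a1, a collagen of basement membranes (0.85), Gsta4 to Chchd6 (0.84) and Gstm2 to Plcb4 (0.83). Gstp1 had the lowest best match (Ssbp1, 0.72). Among the members, Gsta1 and Gsta2 were most alike (0.87), followed by Gstt1 and Mgst1 (0.81), and Gsta1 and Gstm2 were least alike (-0.35).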

How the data were processed

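Single-cell RNA-seq was made with BD Rhapsody. Per the labels, reads were processed with CASAVA 1.8, UMI-tools and Seurat against mm10, and the authors deposited whole UMI counts per gene and cell, with multiplets excluded. The aligner, the annotation and the treatment of multi-mapping reads are not given in the sources used here. Here, barcodes with at least 200 genes and at most 50% mitochondrial UMIs were kept (26760 of 30008), and no further doublets were removed. The 2000 most variable genes, without glutathione S-transferase genes, were reduced to 30 components, corrected between libraries (Harmony, re-implemented), and clustered (15 neighbours, leidenalg 0.10.2, resolution 1) into 26 clusters, named from fixed markers. Counts were summed per class and library and scaled to CPM. Intervals are 95% exact Poisson for levels, exact binomial for shares and for ratios. With 1 library per condition no test was made, and a gene counted as higher or lower at 2-fold or more with at least 20 UMIs over both libraries, where a count of 0 was set to 3 UMIs per library. All 9 members were named. Other family genes were named only at 50 CPM or more, and genes of the 2 pathway lists only among the 4 largest changes of a comparison. The members and the lists were chosen with earlier results of these data known. Alternatives were other filters, clusterings, scalings, thresholds, thinning to 2400 UMIs and sums of relatives, and 5 were chosen after seeing the data. Scripts used Python 3.11.15, numpy 2.4.6, scipy 1.17.1, scikit-learn 1.9.0 and edgeR 4.0.16 (TMM factors), and the ratio calls were tested on simulated data.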

Additional observations from a re-analysis of the deposited data

Results flagged for a closer look

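Gsta4, Gstp1 and Mgst1 differed between IRI24h-TDN and Sham in opposite directions in different cell classes, and the difference between classes was not tested, since each condition had 1 library. The log2 ratio of Gsta4 was 3.85 in PTEC-like cells and -1.41 in endothelial-like cells. For Gstp1 it was 1.10 in PTEC-like cells and -2.04 in mesangial-like cells. For Mgst1 it was 4.11 in PTEC-like cells and -1.16 in ascending limb-like cells. IRI24h-TDN held 165 PTEC-like cells, 103 endothelial-like cells, 458 mesangial-like cells and 437 ascending limb-like cells. No group had enough samples to look for a sample apart from the others.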

How the results depend on the processing

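No paired analysis was possible because each condition had 1 library, and for the same reason no library could be left out. The counts of members past 2-fold, of members highest in PTEC-like cells and of calls with relatives summed were recomputed. Of these values 202 stayed within 1.5 times the reported count and 30 did not, and counts of 0 that stayed 0 are among the 202. With IRI24h-TDN against Sham, the count of higher members in PEC-like cells (3) became 0 with at least 500 genes and at most 25% mitochondrial UMIs, without shared barcodes, without the top 6% of doublet scores and at a clustering resolution of 0.6, and 1 in thinned cells and without the cluster with PTEC markers, where the lower count (2) became 4. Under those first 4 settings the count of members lower in IRI24h-TD than in IRI24h-TDN in PEC-like cells (4) became 1, 2, 2 and 2, and it was 2 in thinned cells, at a fold of 3 and for the mean over cells. Under the stricter filter 22.6% of the IRI24h-TDN cells of the cluster with PTEC markers were classed PTEC-like. In PTEC-like cells the higher count (6) became 2 without correction between libraries and 3 in thinned cells, and the lower count (1) became 0 under both, at a fold of 3 and for the mean over cells. At a fold of 1.5, intercalated-like cells had 3 higher and 1 lower, and podocyte-like cells 1 higher and 2 lower. At a fold of 3, intercalated-like cells had 0 higher and PEC-like cells 1 lower. Intercalated-like cells had 2 higher without the highest cell of each member and for the mean over cells. The count of members with their highest Sham level in PTEC-like cells (1) became 2 under TMM scaling and for the mean over cells. Counted as a single gene, no member called higher or lower took the opposite sign under a setting, but Gsta3, Gstp1 and Gstm2 in PTEC-like cells kept their sign in 14 of 15 settings. In the remaining setting the log2 ratio was 0, the value set where a library had 0 UMIs and the sign could not be told. The sum of all Gstm genes in PTEC-like cells was higher (1.15) where Gstm2 alone was lower (-1.35), and Gstm2 is a small part of that sum. Gsta3 in PEC-like cells, not called at -0.32, was 0.83 without correction between libraries and 1.43 without the cluster with PTEC markers. Gstt1 in PTEC-like cells went from 0.69 to -0.29 in thinned cells. Over these settings the log2 ratio in PTEC-like cells ranged from 2.29 to 3.48 for Gsta2, from 3.74 to 4.19 for Mgst1 and from 0.58 (no correction between libraries) to 4.99 for Gsta4. The Gstm1 ratio in PEC-like cells ranged from -1.49 to -1.16, and the Gstp1 ratio in podocyte-like cells from -1.94 to -1.78. Depth limits Gsta1 in Sham and Gstm2 in PTEC-like cells, which rest on few UMIs.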
